A study of Homo sapiens with 34 samples.

Results

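The secreted WNT antagonists are extracellular proteins that lower WNT signalling from outside the cell. The 8 genes described here are DKK1, DKK3, DKK4, SFRP1, SFRP2, SFRP4, SFRP5 and WIF1, and all 13 array probes that carry 1 of these symbols were taken, out of 30113 probes with a single gene symbol for 20046 genes. WNT ligands bind a Frizzled receptor together with the co-receptor LRP5 or LRP6, which stabilizes beta-catenin and switches on genes with TCF/LEF sites. The Dickkopf proteins DKK1 and DKK4 bind LRP5 and LRP6, with KREMEN proteins as partners, while the SFRP proteins and WIF1 bind the WNT ligands themselves. In liver cancer the pathway is often active through changes in CTNNB1 or AXIN1, and promoters of several of these genes, SFRP1 and WIF1 among them, are known to be methylated in tumours.

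The arrays were Illumina bead arrays of total RNA from 3 established hepatocellular carcinoma lines, HepG2, SNU398 and SNU475. Cells received SGI-110 (guadecitabine, a dinucleotide of the DNA methyltransferase inhibitor decitabine and deoxyguanosine) in 3 daily doses of 100 nM, 72 h of exposure in all, and were then followed without further drug. Treated HepG2 and SNU398 cells were taken on days 3, 10, 17 and 24 and treated SNU475 cells on days 3, 10, 17, 24, 31 and 56. Untreated cells of each line were taken before the drug only, shown as day 0, so time in culture and treatment cannot be told apart. Each of the 17 groups of 1 line on 1 day holds 2 arrays, 34 in all, and the labels do not say whether they are separate cultures, so the p-values measure the spread between these arrays, which may be technical.

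Levels are log2 of the normalized intensity, and a probe counted as above background above 6.98 on this scale. Precision is limited by having a pair of arrays per group. The arrays of a group correlated at 0.991 to 0.995 over the tested probes. Deposited percentiles coincided within 3 sets of arrays: the first holds all HepG2 arrays and untreated SNU398, the second treated SNU398 with SNU475 untreated and on day 3, and the third SNU475 from day 10. Treatment and array set therefore cannot be told apart for SNU398 against its untreated cells, nor for SNU475 from day 10, and comparisons within a set are given beside those results. The 2 SNU475 arrays of day 56 stood apart from their line, with a median correlation of 0.936 to 0.937 against at least 0.968 for every other array, yet were still closer to SNU475 (0.928 to 0.948) than to SNU398 (0.816 to 0.843) or HepG2 (0.762 to 0.78). A change in these cells and a different culture cannot be told apart, a limit on every day 56 value below. Of 9 hepatocyte markers, 8 had a probe. All 8 were above background in HepG2 but only 2 or 3 in SNU398 and 2 to 4 in SNU475. Of 8 fibroblast and stellate cell markers, 7 or 8 were above background in SNU475, 6 or 7 in SNU398 and 2 or 3 in HepG2. Endothelial markers above background numbered at most 2 of 5 in any line. Of 6 blood markers, 5 had a probe. PTPRC and CD3E were not above background while CD68 was, in every group. CD14 was above background in every group but SNU398 on day 24, where 1 of 2 arrays was. In HepG2 CD14 averaged 9.01 untreated and 12.77 on day 10, and in untreated SNU475 12.52. HBB was above background on both arrays in untreated SNU398 only.

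Promoter sequence is shown for 3 members whose levels moved in different lines, since the drug inhibits the enzymes that methylate CpG sites. RefSeq on GRCh38.p14 gave the 250 bases before the start of 5 of the 8 genes, and CpG pairs are in capitals. DKK1 lies at chr10:52314031-52314280 on the plus strand, SFRP2 at chr4:153789084-153789333 on the minus strand and WIF1 at chr12:65121306-65121555 on the minus strand, each read on the strand of its gene.
DKK1: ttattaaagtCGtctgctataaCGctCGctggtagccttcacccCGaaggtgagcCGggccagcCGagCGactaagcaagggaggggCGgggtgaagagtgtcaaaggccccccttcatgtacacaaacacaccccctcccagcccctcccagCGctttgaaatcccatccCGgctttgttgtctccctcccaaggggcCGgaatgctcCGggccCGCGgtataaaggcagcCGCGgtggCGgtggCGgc
SFRP2: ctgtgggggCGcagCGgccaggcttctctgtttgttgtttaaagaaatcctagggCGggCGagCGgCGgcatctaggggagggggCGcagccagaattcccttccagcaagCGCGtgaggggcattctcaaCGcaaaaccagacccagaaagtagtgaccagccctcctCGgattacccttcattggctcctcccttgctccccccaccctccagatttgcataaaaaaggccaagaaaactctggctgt
WIF1: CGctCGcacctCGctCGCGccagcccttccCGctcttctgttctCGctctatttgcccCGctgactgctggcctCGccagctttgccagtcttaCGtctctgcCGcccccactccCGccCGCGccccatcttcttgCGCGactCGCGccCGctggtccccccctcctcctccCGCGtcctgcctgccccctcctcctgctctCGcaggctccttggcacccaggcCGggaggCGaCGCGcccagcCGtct
WIF1 held 27 CpG pairs, and 17.7% of the 35116 promoters in the table held at least as many, while DKK1 held 18 (36.8%) and SFRP2 held 11 (50.3%). SFRP4 held 17 pairs and SFRP5 held 21, against a median of 11 over all promoters and quartiles of 3 and 23. Of the TCF/LEF type letters ATCAAAG and TTCAAAG, searched on both strands, DKK1 held TTCAAAG on the reverse strand (seen above as ctttgaa) and the other 4 held neither. These letters occur in 2.26% and 3.8% of all promoters, and 5.94% hold either. The promoters of DKK3, DKK4 and SFRP1 are not shown. Methylation was not tested for any member, and a count of CpG pairs does not give it.

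The members differed widely between lines and between days, and 11 probes of 7 genes passed the filter on dim probes. SFRP5, an SFRP family WNT trap, was above background on 0 of 34 arrays (5.70 to 6.96) and was not tested. Of 4 DKK3 probes, 1739759 passed the background level on 2 single arrays (6.13 to 7.20 over all) and was not tested either. The remaining probes follow by role.

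**Figure D1:**
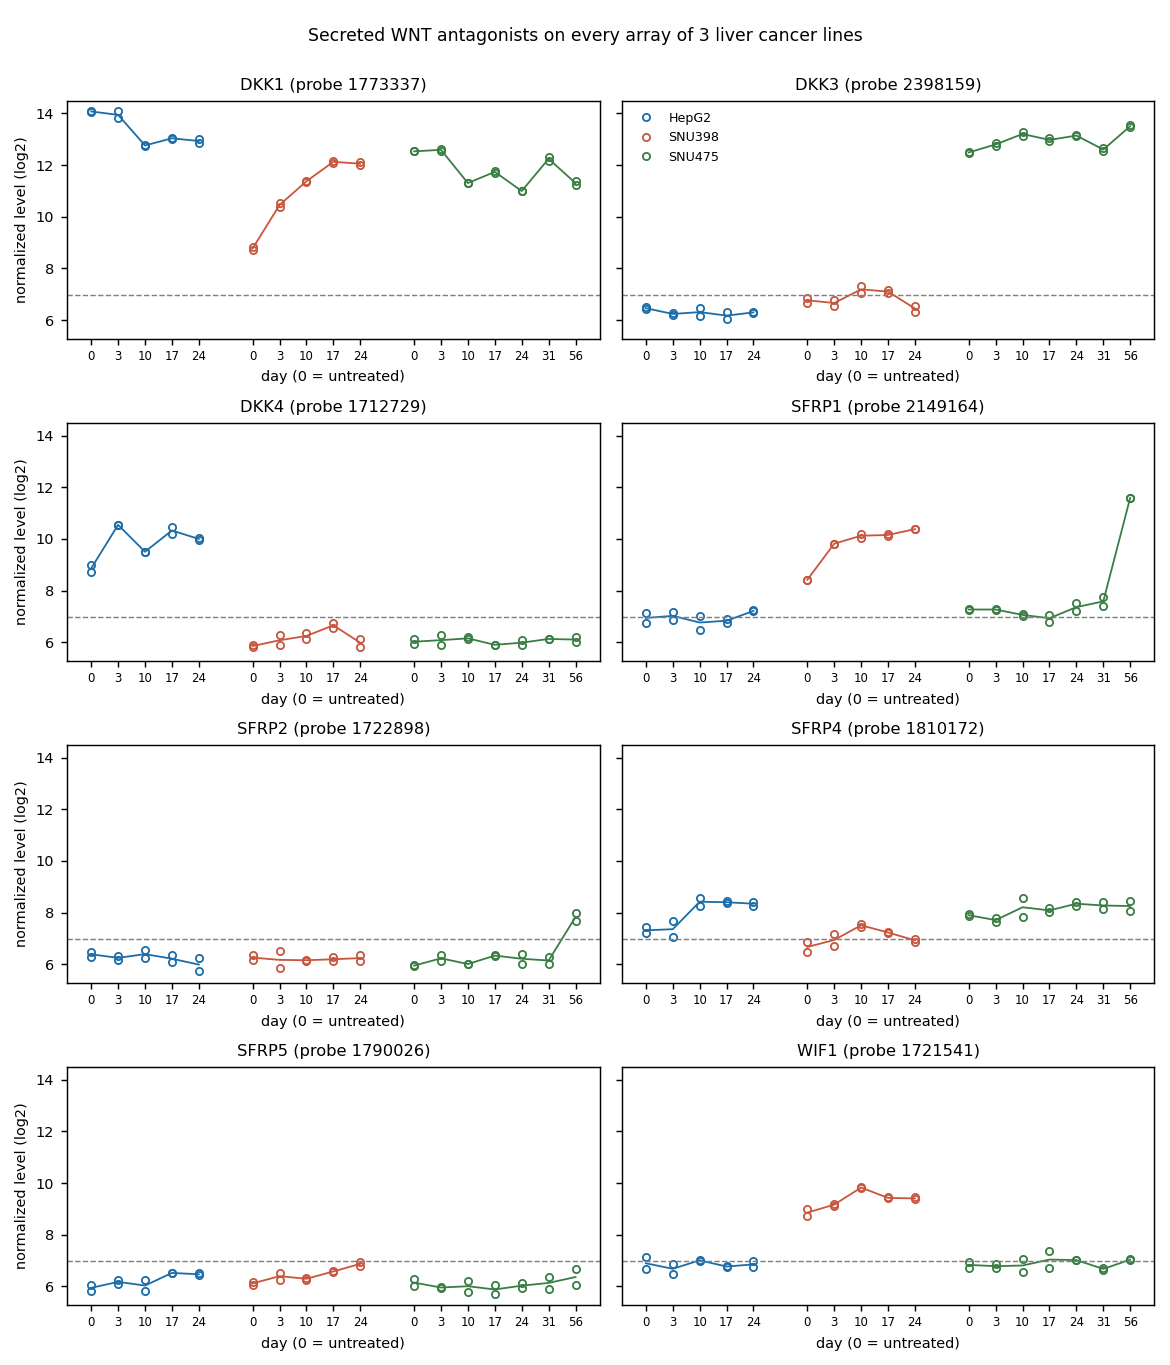
Normalized log2 level (y axis) of 1 probe a gene on every array, by line and day (x axis; 0 = untreated), with lines through group means and the background level of 6.98 dashed. DKK1 and SFRP1 climbed in SNU398, DKK4 stood above background in HepG2 alone, and SFRP1 and SFRP2 were high in SNU475 on day 56.

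DKK1, which blocks LRP5 and LRP6 and is itself a WNT target gene, rose in treated SNU398 but lay below untreated cells from day 10 in HepG2 and SNU475. On probe 1773337, HepG2 arrays read 14.07 and 14.08 untreated, 13.81 and 14.08 on day 3, 12.79 and 12.73 on day 10, 13.02 and 13.06 on day 17, and 12.84 and 13.03 on day 24. SNU398 arrays read 8.84 and 8.71 untreated, 10.54 and 10.38 on day 3, 11.37 and 11.39 on day 10, 12.09 and 12.17 on day 17, and 12.12 and 11.99 on day 24. In HepG2 the arrays of days 10 to 24 all lay below the untreated ones and day 3 overlapped them, while in SNU398 every treated array lay above both untreated arrays. SNU475 arrays read 12.53 and 12.54 untreated, 12.64 and 12.54 on day 3, 11.32 and 11.29 on day 10, 11.79 and 11.69 on day 17, 10.99 and 11.01 on day 24, 12.17 and 12.32 on day 31, and 11.38 and 11.23 on day 56. From day 10 on every SNU475 array lay below the untreated ones, with day 31 the nearest to them.

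The largest DKK1 change was in SNU398, where it rose 3.21-fold by day 3 (log2 difference 1.68 ± 0.12, SE of the fit; limma adjusted p = 4.89e-12), 6.07-fold by day 10 (2.60; adjusted p = 8.75e-17), 10.2-fold by day 17 (3.35; adjusted p = 9.94e-19) and 9.71-fold by day 24 (3.28; adjusted p = 1.81e-18). Within the one array set of treated SNU398, a comparison chosen after seeing the data, day 17 was still above day 3 by 1.67 (adjusted p = 5.58e-11) and day 24 by 1.60 (adjusted p = 6.72e-11). In HepG2 it fell 2.49-fold on day 10 (-1.31 ± 0.12; adjusted p = 2.86e-10), 2.05-fold on day 17 (adjusted p = 5.24e-08) and 2.21-fold on day 24 (adjusted p = 9.89e-09), all in 1 array set. SNU475 cells had less DKK1 on day 10 (2.34-fold; adjusted p = 3.73e-09), day 17 (1.73-fold; adjusted p = 1.02e-05), day 24 (2.90-fold; adjusted p = 2.67e-11) and day 56 (2.34-fold; adjusted p = 5.5e-10). SNU475 days 3 and 31 did not pass the test against untreated cells. Within the third set, DKK1 on day 31 was 0.94 above day 10 (adjusted p = 4.02e-07) and day 56 was 0.94 below day 31 (log2 difference -0.94; adjusted p = 1.06e-07), so the SNU475 course was not a steady fall.

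The dimmer DKK1 probe 2174189 called the same direction in each line. Its HepG2 arrays read 7.97 and 7.93 on day 10, against 9.45 and 9.52 untreated, and it fell 2.90-fold there (adjusted p = 1.5e-07). In SNU398 day 24 read 7.55 and 7.59, against 6.29 and 6.31 untreated, both below background, and was called higher (fitted log2 difference 1.27; adjusted p = 1.29e-05). It differed from the brighter probe on day 3 of SNU398, where 1 of 2 arrays was above background (7.22 and 6.54) and no call was made. Within array sets it missed the threshold at 3 steps called on the brighter probe: SNU398 day 17 minus day 3 (0.35; adjusted p = 0.295), SNU475 day 31 minus day 10 (0.45; adjusted p = 0.0783) and SNU475 day 56 minus day 31 (-0.40; adjusted p = 0.0852). The correlation of the pair over 17 group means was 0.93, a description over points that share arrays.

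**Figure D2:**
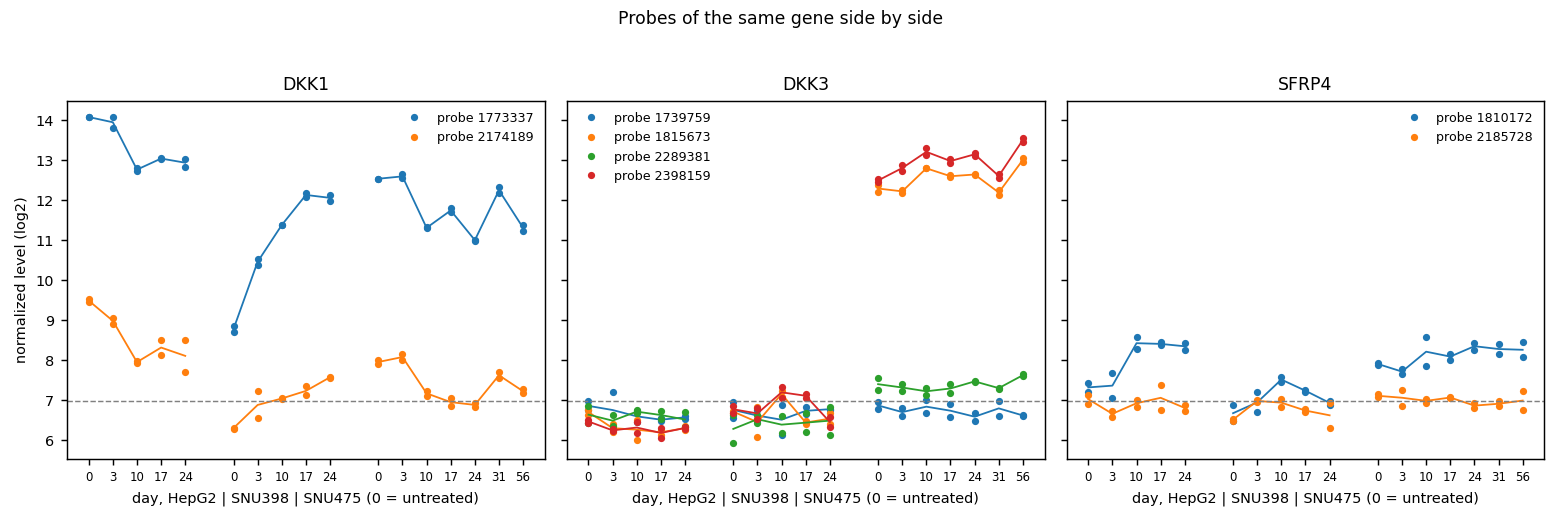
Normalized log2 level (y axis) of every probe of DKK1, DKK3 and SFRP4 on each array by line and day (x axis; 0 = untreated), points for arrays, lines for group means, dashed line for background. Both DKK1 probes drop in treated HepG2 and climb in SNU398. DKK3 probes 1815673 and 2398159 run in parallel in SNU475 from day 10 while 1739759 stays near background.

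DKK4, the other Dickkopf protein known to block LRP5 and LRP6 and a WNT target gene as well, was a HepG2 transcript in these data. Its probe 1712729 read 8.99 and 8.73 in untreated HepG2, 10.56 and 10.53 on day 3, 9.50 and 9.51 on day 10, 10.18 and 10.47 on day 17, and 9.96 and 10.04 on day 24. Every treated HepG2 array lay above both untreated arrays, with day 3 highest and day 10 lowest among the treated days. No SNU398 or SNU475 array was above background (5.82 to 6.75), so differences among them were not counted as calls. DKK4 rose 3.21-fold on day 3 (log2 difference 1.68 ± 0.15, SE; adjusted p = 2.93e-09), 1.56-fold on day 10 (0.64; adjusted p = 0.00146), 2.76-fold on day 17 (1.46; adjusted p = 1.16e-08) and 2.20-fold on day 24 (1.14; adjusted p = 1.2e-06). The drop between days was itself called: day 10 was 2.06-fold below day 3 (adjusted p = 3.57e-06). In the same cells DKK1 was lower than untreated on days 10 to 24, so against untreated HepG2 these LRP5 and LRP6 blockers differed in direction. Among the treated days they ran alike. DKK1 probe 1773337 averaged 13.95 on day 3, 12.76 on day 10, 13.04 on day 17 and 12.93 on day 24. Its day 10 level was also called below day 3 (-1.18; limma adjusted p = 3.3e-09).

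DKK3, a divergent Dickkopf protein that is not a regular LRP5 or LRP6 ligand, was a SNU475 transcript. Probe 2398159 read 12.52 and 12.46 in untreated SNU475, 12.87 and 12.74 on day 3, 13.30 and 13.12 on day 10, 13.03 and 12.92 on day 17, 13.18 and 13.11 on day 24, 12.56 and 12.65 on day 31, and 13.55 and 13.46 on day 56. On this probe all treated SNU475 arrays lay above the untreated ones, although those of day 31 by little. It rose 1.64-fold on day 10 (log2 difference 0.72 ± 0.13, SE; adjusted p = 0.000204), 1.57-fold on day 24 (0.65; adjusted p = 0.000314) and 2.02-fold on day 56 (1.01; adjusted p = 2.55e-07). The 1.40-fold rise on day 17 (0.49; adjusted p = 0.0133) was lost without untreated replicate 1 (0.51; adjusted p = 0.0564), without untreated replicate 2 (0.46; adjusted p = 0.0942) and without day 17 replicate 1 (0.43; adjusted p = 0.125). It was also lost with the deposited values (0.20; limma adjusted p = 0.154) and with median scaling in place of quantile normalization (0.36; adjusted p = 0.0671).

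The same SNU475 cells differed in fibroblast and stellate markers. On day 10 COL1A2 averaged 12.56 against 9.29 untreated, COL1A1 13.07 against 11.18, THY1 9.21 against 7.01, PDGFRB 10.07 against 8.24 and DCN 10.56 against 9.75, while COL3A1, ACTA2 and LUM were within 0.3 of untreated cells. All 8 of the 8 markers were above background on day 10 and 7 untreated, and their summed intensity was 88869 to 96151 on day 10, against 76040 to 77250 untreated. Their part in the DKK3 results was not tested.

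Within the third array set DKK3 day 31 was 0.60 below day 10 (log2 difference -0.60; adjusted p = 0.00107) and day 56 was 0.90 above day 31 (adjusted p = 2.07e-06), opposite to DKK1 at both steps. Probe 1815673 ran between 12.12 and 13.05 in SNU475 and was called higher on day 56 (0.72; adjusted p = 0.000751). Unlike 2398159, it averaged less on day 3 (12.22) and day 31 (12.19) than in untreated SNU475 (12.29). It had no call on day 17 or day 24. Its call on day 10 of SNU475 (0.51; adjusted p = 0.0327) was lost when either untreated array or either day 10 array was left out (0.42 to 0.59; adjusted p = 0.0592 to 0.214). That SNU475 call was also lost with the deposited values (0.21; limma adjusted p = 0.174) and with median scaling (0.37; adjusted p = 0.122). Probe 2289381 ran between 7.13 and 7.65 there, with no call against untreated cells. In HepG2 no DKK3 probe was above background on both arrays of a group. Day 10 of SNU398 was just above it on probes 2398159 (7.06 and 7.33) and 1815673 (7.23 and 7.07), at least 1.16-fold and at least 1.12-fold higher than untreated cells (adjusted p = 0.014 and 0.0424). The first of these calls was lost without untreated replicate 1 (0.33; adjusted p = 0.141) or day 10 replicate 2 (0.29; adjusted p = 0.196), and the second without any 1 of the 4 arrays (adjusted p = 0.0634 to 0.226). Both were also lost with the deposited values (limma adjusted p = 0.103 and 0.137).

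Among the SFRP proteins, which carry a Frizzled-like domain that binds WNT ligands, SFRP1 showed the largest change of any member. Probe 2149164 read 8.41 and 8.43 in untreated SNU398, 9.81 and 9.82 on day 3, 10.05 and 10.20 on day 10, 10.10 and 10.20 on day 17, and 10.37 and 10.39 on day 24. In SNU475 it read 7.23 and 7.30 untreated, 7.26 and 7.27 on day 3, 7.08 and 7.03 on day 10, 7.06 and 6.80 on day 17, 7.21 and 7.51 on day 24, 7.42 and 7.74 on day 31, and then 11.59 and 11.59 on day 56. HepG2 stayed near background throughout, between 6.49 and 7.23. In SNU398 every treated array lay well above the untreated ones, whereas in SNU475 only day 56 left the range around background.

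SFRP1 rose 2.63-fold on day 3 of SNU398 (log2 difference 1.40 ± 0.16, SE; adjusted p = 5.7e-08), 3.26-fold on day 10 (adjusted p = 7.22e-10), 3.33-fold on day 17 (adjusted p = 7.86e-10) and 3.89-fold on day 24 (1.96; adjusted p = 1.31e-10). Most of that rise was present by day 3, and within the treated set day 24 was 0.56 above day 3 (adjusted p = 0.0126) while day 17 did not pass (0.34; adjusted p = 0.216). On day 56 of SNU475 it was 20.0-fold above untreated cells (4.32 ± 0.16; adjusted p = 3.12e-19). The same step was seen inside the third set, where day 56 exceeded day 31 by 4.01 (adjusted p = 3.1e-18), and day 31 exceeded day 10 by 0.52 (adjusted p = 0.0129).

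SFRP2, a close relative of SFRP1, was above background in 1 of 17 groups. On day 56 of SNU475 probe 1722898 read 7.98 and 7.68, against 5.96 and 5.94 in untreated SNU475, and all arrays of the other groups lay between 5.75 and 6.56. Day 56 was at least 1.80-fold above untreated cells (fitted log2 difference 1.88 ± 0.18, SE), and neither day 31 array in its array set was above background. The probe passed the filter on dim probes through day 56 alone. Its calls on that day rest on the group that selected it, so they are no separate evidence and their p-values are not given.

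Fibroblast and stellate markers also differed on the same day. THY1 read 12.51 ± 0.16 on day 56 of SNU475, against 7.01 ± 0.05 untreated (SD, n = 2 each; 1 of 2 untreated arrays above background), PDGFRB 11.67 against 8.24, COL1A1 14.03 against 11.18, COL1A2 13.02 against 9.29, DCN 12.28 against 9.75 and LUM 12.85 against 11.94. COL3A1 (12.75 on day 56, against 14.05 untreated) and ACTA2 (14.97 against 15.65) went the other way. The summed intensity of the 8 markers was 83208 and 87849 on day 56, against 76040 and 77250 untreated, and 75136 to 96151 over all SNU475 arrays. THY1 already stood at 10.01 on day 31, when SFRP1 and SFRP2 had not passed the test against untreated cells. The part of these markers in the SFRP1 and SFRP2 results was not tested.

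**Figure D3:**
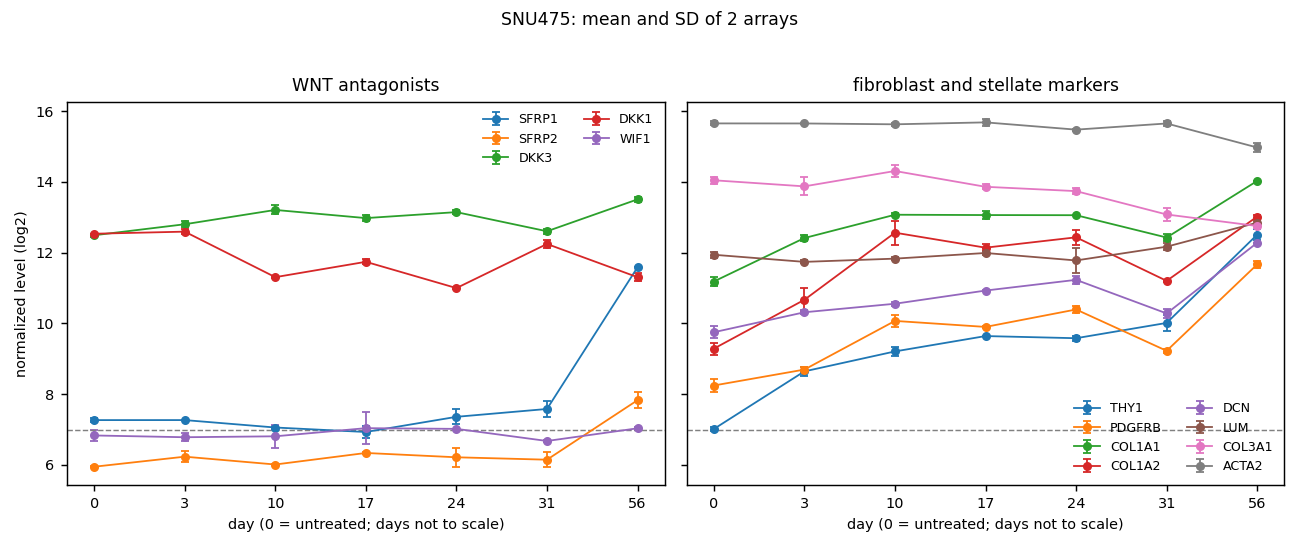
SNU475 cells by day (x axis, days not to scale; 0 = untreated), as mean normalized log2 level (y axis) with SD of 2 arrays, for 5 WNT antagonists (left) and 8 fibroblast and stellate markers (right). SFRP1 and SFRP2 step up on day 56, the day on which THY1, PDGFRB, COL1A1, COL1A2, DCN and LUM are highest and COL3A1 and ACTA2 lowest.

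SFRP4, another SFRP protein, rose late in HepG2. Probe 1810172 read 7.43 and 7.21 in untreated HepG2, 7.05 and 7.67 on day 3, 8.57 and 8.27 on day 10, 8.44 and 8.36 on day 17, and 8.43 and 8.26 on day 24. Day 3 straddled the untreated arrays and the 3 later days lay above them. The rise was 2.15-fold on day 10 (log2 difference 1.11 ± 0.20, SE; adjusted p = 8.49e-05), 2.13-fold on day 17 (adjusted p = 0.000153) and 2.04-fold on day 24 (adjusted p = 0.000319), with little change among these days.

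In SNU398 the SFRP4 probe read 6.47 and 6.87 untreated, 6.69 and 7.19 on day 3, 7.57 and 7.46 on day 10, 7.26 and 7.20 on day 17, and 6.87 and 6.98 on day 24. It was thus above background on both arrays on days 10 and 17 only. Day 10 was at least 1.44-fold higher than untreated cells (fitted log2 difference 0.84; adjusted p = 0.00176) and day 17 at least 1.19-fold (0.56; adjusted p = 0.0342). The day 10 call was lost without untreated replicate 1 (0.64; adjusted p = 0.054), and the day 17 call without untreated replicate 1 (0.36; adjusted p = 0.309), day 17 replicate 1 (0.53; adjusted p = 0.131) or day 17 replicate 2 (0.59; adjusted p = 0.0953). The day 17 call was also lost with the deposited values (0.33; limma adjusted p = 0.0813). Within the treated set day 17 did not pass against day 3 (0.29; adjusted p = 0.457). In SNU475 the probe ran from 7.64 to 8.57, with no call against untreated cells on any day. The second SFRP4 probe, 2185728, ran from 6.31 to 7.37 over all arrays, was above background in 2 groups and had no call against untreated cells, so the SFRP4 results rest on 1 probe.

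WIF1, a secreted protein whose WIF domain binds WNT ligands, was a SNU398 transcript. Probe 1721541 read 8.73 and 8.98 in untreated SNU398, 9.20 and 9.13 on day 3, 9.86 and 9.79 on day 10, 9.44 and 9.41 on day 17, and 9.44 and 9.37 on day 24. All treated arrays lay above the untreated ones, with day 10 highest. It rose 1.96-fold on day 10 (log2 difference 0.97 ± 0.18, SE; adjusted p = 7.02e-05), and within the treated set day 10 was 0.66 above day 3 (adjusted p = 0.00427). Against day 3 in that set, day 17 (0.26; limma adjusted p = 0.436) and day 24 (0.24; adjusted p = 0.396) did not pass. The smaller rises on day 17 (0.57; adjusted p = 0.0128) and day 24 (0.55; adjusted p = 0.0276) were each lost without untreated replicate 1 (0.44; adjusted p = 0.141 for day 17, and 0.42; adjusted p = 0.223 for day 24). Leaving out either array of the treated day also ended them, with adjusted p = 0.0506 to 0.0665 on day 17 and 0.0845 to 0.14 on day 24. In HepG2 (6.48 to 7.13) and SNU475 (6.57 to 7.35) WIF1 stayed at or near background. The part of promoter methylation in these levels was not tested.

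**Figure D4:**
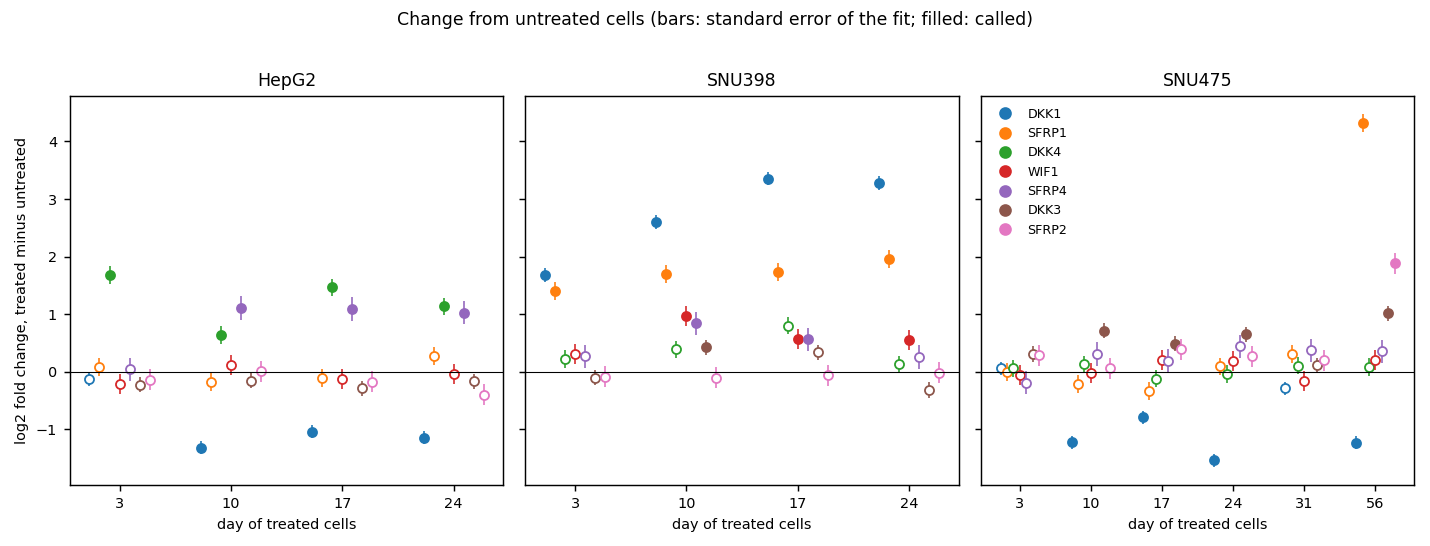
Log2 fold change of treated over untreated cells (y axis) by day (x axis) in each line for 1 probe a gene, with bars for the standard error of the fit and filled points where the change was called. In SNU398 all filled points lie above 0, whereas in HepG2 and SNU475 the DKK1 points lie below 0 from day 10.

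Counted over the 11 tested probes, a call needed an adjusted p under 0.05 and a level above background on both arrays of at least 1 of the groups compared. In SNU398 the count was 2 higher and 0 lower on day 3 (29.3% of all 20955 tested probes were called in either direction), 7 and 0 on day 10 (31%), 5 and 0 on day 17 (30.1%), and 4 and 0 on day 24 (17%). The direction was one-sided in SNU398, 18 higher and 0 lower of 44 possible (limma; at an unadjusted p under 0.05, 1 probe was lower, on day 24), while over all probes higher and lower calls were about equally common in that line, at 14.8% and 14.5% on day 3, 16.6% and 14.4% on day 10, 15.5% and 14.6% on day 17, and 9.08% and 7.88% on day 24. The 44 are not separate chances, since all days share the same 2 untreated arrays, which lie in another array set. DKK1 and SFRP1 recur among the higher calls on every treated day. Leaving out 1 array gave 12 to 19 higher and 0 lower. Fibroblast and stellate markers differed in the same SNU398 cells. On day 10 COL1A2 averaged 8.34 (untreated cells below background), COL1A1 8.26 against 7.07 untreated, ACTA2 10.02 against 8.78 and THY1 8.97 against 7.99. COL3A1 averaged 13.35 against 12.78 and DCN 11.24 against 10.77 on day 10, while LUM was near untreated cells (11.51 against 11.44). On day 24 LUM averaged 12.51, but COL1A1 (7.44) and THY1 (8.47) lay closer to untreated cells than on day 10. On day 3 COL3A1 (12.64) and DCN (10.33) lay below untreated cells. Of the 8 markers, 7 were above background on days 10 to 24, against 6 untreated, with PDGFRB below background in all SNU398 groups. Their summed intensity was 11715 to 18824 over treated SNU398 arrays, against 12518 to 12582 untreated, and their part in the SNU398 counts was not tested. In HepG2 the count was 1 higher and 0 lower on day 3 (12.7% of all probes called; limma, 2 probes lower at an unadjusted p under 0.05), and 2 higher and 2 lower on each of day 10 (29.6%), day 17 (23.2%) and day 24 (23.2%), the lower calls being both DKK1 probes. SNU475 had 0 calls on day 3 (3.09%; limma, 1 probe at an unadjusted p under 0.05), 2 higher and 2 lower on day 10 (17.6%), 1 and 2 on day 17 (12.2%), 1 and 2 on day 24 (30.2%), 0 on day 31 (12.3%; limma, 1 probe at an unadjusted p under 0.05), and 4 higher and 2 lower on day 56 (43.5%). SFRP2 is among the higher calls of day 56 and passed the filter on dim probes through that group alone.

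With only 11 probes, several of them of the same gene, 1 probe moves such a share by a large step. The median change of the 11 probes was 0.44 on day 10 and 0.56 on day 17 of SNU398, against 0.01 over all tested probes on both days. In HepG2 the members' medians lay between -0.16 and -0.10, against -0.02 to 0.00 over all probes. Day 56 of SNU475 had a median of 0.23, against -0.05 over all probes.

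Between treated days, HepG2 had 1 member probe higher and 3 lower on day 10 than on day 3 (25.2% of all probes called), the lower ones being DKK4 and both DKK1 probes and the higher one SFRP4. On day 24, 2 were higher than on day 10 (20.7%). These were DKK4 (1.41-fold; adjusted p = 0.0171), a call lost without any 1 of the 4 arrays (adjusted p = 0.0504 to 0.109), and SFRP1 (1.37-fold as fitted, with 1 of 2 day 10 arrays above background; adjusted p = 0.0373), lost without day 10 replicate 1 or either day 24 array (adjusted p = 0.115 to 0.572).

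In SNU398, 5 were higher on day 10 than on day 3 (30.6%): DKK1 probe 1773337, WIF1, SFRP4 and DKK3 probes 2398159 and 1815673. Day 3 replicate 2 decided both DKK3 calls (adjusted p = 0.0624 to 0.139 without it or, for 2398159, without day 10 replicate 2), and the SFRP4 call was lost without day 3 replicate 1 or either day 10 array (adjusted p = 0.0714 to 0.379). On day 24 of SNU398, 2 were higher and 3 lower than on day 10 (22.7%). DKK1 probe 1773337 was 1.60-fold higher (adjusted p = 5.64e-05) and DKK3 probe 2398159 at least 1.16-fold lower (adjusted p = 0.000105). The other 3 calls there did not hold without single arrays: DKK1 probe 2174189 (adjusted p = 0.111 to 0.147) and SFRP4 (0.0854 to 0.172) were lost without any 1 of the 4, and DKK3 probe 1815673 without replicate 1 of either day (0.081 to 0.115).

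SNU475 had 2 higher and 2 lower on day 10 than on day 3 (16%), with both DKK1 probes lower and DKK3 higher, although these days lie in different array sets. The DKK3 calls were lost without either day 3 array or day 10 replicate 1 (adjusted p = 0.0551 to 0.246), and that of 1815673 also without day 10 replicate 2. With the deposited values both were lost (limma adjusted p = 0.336 for 2398159 and 0.0801 for 1815673). The same held with median scaling (adjusted p = 0.121 and 0.0745). Day 24 against day 10 gave 0 calls (9.61%; limma, 1 probe lower at an unadjusted p under 0.05), and on day 56 SFRP1 and SFRP2 were higher than on day 10 (41%). SFRP2 passed the filter on dim probes through day 56 alone.

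The effects of treatment were also set against each other between lines, in comparisons that share the untreated cells of a line across days. The effect in HepG2 minus that in SNU398 was called for 4 member probes on day 3 (24.8% of all probes), 6 on day 10 (28.6%), 6 on day 17 (29.9%) and 5 on day 24 (24.1%). HepG2 minus SNU475 was called for 1 probe on day 3 (8.23%), 4 on day 10 (22.4%), 4 on day 17 (20.2%) and 3 on day 24 (26.4%). SNU398 minus SNU475 was called for 2 probes on day 3 (18.6%), 4 on day 10 (28.1%), 3 on day 17 (30%) and 4 on day 24 (31.6%). DKK1 probe 1773337 and SFRP1 were called on all 4 of these days in both comparisons with SNU398, each time with the effect in SNU398 the higher one, and no alternative run for them ended a call.

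The untreated lines already differed in most of these genes, but so did 54% (HepG2 against SNU398), 53.9% (HepG2 against SNU475) and 56% (SNU398 against SNU475) of all tested probes. Of the 11 member probes, 4 were higher and 2 lower in HepG2 than in SNU398, 3 higher and 4 lower in HepG2 than in SNU475, and 2 higher and 7 lower in SNU398 than in SNU475. DKK1 was 39.4-fold higher in HepG2 than in SNU398 (log2 difference 5.30 ± 0.12, SE; adjusted p = 2.2e-25), 2.91-fold higher in HepG2 than in SNU475 (adjusted p = 1.35e-12) and 13.5-fold lower in SNU398 than in SNU475 (adjusted p = 1.02e-21). After treatment the order of SNU398 and SNU475 changed on DKK1 probe 1773337. On day 3 SNU398 was still lower (10.54 and 10.38, against 12.64 and 12.54). On days 10, 17 and 24 both SNU398 arrays lay above both SNU475 arrays, on day 24 at 12.12 and 11.99 against 10.99 and 11.01. SNU398 on day 17 overlapped SNU475 on day 31 (12.09 and 12.17, against 12.17 and 12.32). On the dimmer probe 2174189 SNU398 was higher on days 17 and 24 but lower on day 10. From day 10 these lines lie in different array sets, and their treated levels were not tested against each other.

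DKK3 probe 2398159 was at least 45.6-fold lower in untreated HepG2 and in untreated SNU398 than in untreated SNU475 (adjusted p = 2.88e-25 and 1.72e-24), and no treated HepG2 or SNU398 group came near the SNU475 level. DKK4 was at least 3.68-fold higher in HepG2 than in either other line. WIF1 was lower in HepG2 than in SNU398 (3.89-fold as fitted, with 1 of 2 HepG2 arrays above background; adjusted p = 6.83e-11) and at least 3.66-fold higher in SNU398 than in SNU475 (adjusted p = 3.45e-11). SFRP1 was lower in HepG2 than in SNU398 (2.78-fold as fitted, again with 1 of 2 HepG2 arrays above background; adjusted p = 2e-09) and 2.22-fold higher in SNU398 than in SNU475 (adjusted p = 2.08e-07). SNU398 shared its array set with HepG2 in these untreated cells, whereas SNU475 lay in another set.

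Ordered by group mean, DKK1 was highest in untreated HepG2 and lowest in untreated SNU398 on both probes, and untreated HepG2 overlapped its next neighbour, HepG2 day 3, on probe 1773337 but not on 2174189. SFRP1 was highest in SNU475 on day 56, then in SNU398 on day 24, with no overlap between them or with the group that followed; SNU398 days 17 and 10 overlapped each other. DKK3 was highest in SNU475 on day 56 without overlap on probes 2398159, 1815673 and 2289381, followed by day 10 on the first pair and by day 24 on 2289381. Days 10 and 24 overlapped on 2398159 but not on 1815673. DKK4 held the same order as its values above, with no overlap among the 5 HepG2 groups. WIF1 was highest in SNU398 on day 10, followed without overlap by days 17 and 24, which overlapped. SFRP4 had no such order at the top, since its 8 highest groups, 3 of HepG2 and 5 of SNU475, each overlapped the next.

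The genes with the group means most like each member were named from 15075 probes whose means spanned at least 1 log2 unit, as a description over 17 groups that share arrays and lines. WIF1 was nearest to DKK2, another secreted LRP5 and LRP6 ligand (r = 0.993), then GRIK1 (0.992) and HGC6.3 (0.99). DKK3 was nearest to HTRA1 (0.997) on both of its bright probes, with P3H2 next on 1815673 (0.997) and ITGA3 on 2398159 (0.995). DKK4 was nearest to BDH1 (0.991), PKLR (0.99) and MASP2 (0.99). DKK1 had no comparably close match: LZIC reached 0.901 and PIP4K2B 0.891 for probe 1773337, and AIFM1 0.918 for 2174189. SFRP4 likewise reached only 0.925 with SLC38A4 and 0.922 with PEX6. SFRP2 was nearest to KCNH1 (0.959) and ESRRG (0.954), a likeness that its single high group sets. SFRP1 was nearest to TMEFF2 (0.974), CACHD1 (0.962) and BACE2 (0.961), but without day 56 of SNU475, an alternative chosen after seeing the data, the nearest were KCTD12 (0.984), TDO2 (0.981) and ROBO2 (0.977). Between different members the correlation over 17 groups was 0.722 for SFRP1 and WIF1, and 0.731 and 0.69 for DKK4 with DKK1 probes 2174189 and 1773337.

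The rest of the WNT pathway was counted over 80 tested genes with 1 probe each, in lists by role of which LEF1 and LGR5 stand in more than one. Among 12 other WNT antagonists, secreted or membrane-bound, 8 rose and 0 fell on day 56 of SNU475 (45.5% of all genes called), among them FRZB, an SFRP relative (1.66 ± 0.15, log2 difference and SE; adjusted p = 3.47e-10), IGFBP4, which also binds insulin-like growth factors (1.52; adjusted p = 4.46e-09), APCDD1, a membrane protein that binds WNT and LRP5 (at least 2.05-fold; adjusted p = 1.81e-06) and DKKL1, a Dickkopf-like protein (0.82; adjusted p = 7.95e-06). DKKL1 fell in SNU398 on all 4 treated days, by 0.59 to 1.17, opposite to DKK1. IGFBP4 fell by 1.38 on day 24 of HepG2.

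Of 13 tested ligand, secretion and R-spondin genes, 4 rose and 4 fell on day 56 of SNU475 (45.5% of all genes called). The ligands WNT2B (2.28; adjusted p = 3.07e-14), WNT5A (1.83; adjusted p = 1.27e-10) and WLS, the carrier that brings WNT proteins to the cell surface (1.79; adjusted p = 1.91e-10), rose there. RSPO3, a WNT signal enhancer, fell on every treated day of SNU475, most on day 24 (-1.72 ± 0.15; adjusted p = 4.13e-10).

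Among 20 receptor genes, 10 rose and 3 fell on day 56 of SNU475 (45.5% of all genes called), and no other comparison with untreated cells had more than 5 higher. That day also had the largest share of all tested probes called against untreated cells (43.5%). The Frizzled receptor FZD4 (0.999; adjusted p = 5.54e-08) and the WNT5A receptor ROR2 (1.28; adjusted p = 6.36e-08) rose, and its relative ROR1 fell (-1.49; adjusted p = 3.82e-09). KREMEN2, the partner of DKK1 in taking LRP6 off the surface, fell in HepG2 on all 4 days, by 0.997 on day 3 (adjusted p = 2.4e-05) and by 1.36 on day 24 (adjusted p = 6.58e-08), in the cells where DKK1 fell from day 10. Of 20 cytoplasmic and nuclear genes, 6 rose and 4 fell on day 56 of SNU475 (45.5% of all genes called). The co-repressor TLE2 (2.22), the transcription factor LEF1 (1.97) and the kinase CSNK1E (1.27) were higher and the transcription factor TCF7L1 at least 2.56-fold higher.

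Of 17 tested target and feedback genes, 3 rose on day 3 of SNU398 (31.1% of all genes called), 7 on day 10 (32.9%), 6 on day 17 (31.9%) and 2 on day 24 (18.1%), and 0 fell. The day 10 rises were led by BAMBI, a pseudoreceptor for TGF-beta signals (2.13 ± 0.14; adjusted p = 6.25e-13), and the cyclin CCND1 (1.65 ± 0.13; adjusted p = 1.89e-11), and on day 17 BAMBI stood 2.36 above untreated cells (adjusted p = 1.51e-13). SP5, RNF43 and GLUL of the same list had 0 calls against untreated cells in any line. AXIN2 had 2 higher and 3 lower calls over all lines. Whether WNT signalling itself changed was not tested. In HepG2 6 fell and 0 rose on day 3 (13.5% of all genes called), among them CCND1 (-0.69; adjusted p = 0.000281), BAMBI (-0.64; adjusted p = 0.00188) and NKD2, a feedback inhibitor of Dishevelled, which was at least 2.66-fold lower (adjusted p = 3.55e-09). HepG2 had 3 higher and 3 lower on day 10 (30.9% of all genes called), 3 and 6 on day 17 (24%), and 1 and 6 on day 24 (24.4%). The difference between lines was not tested for these genes. On day 56 of SNU475 NKD2 was 14.6-fold higher (3.87 ± 0.15; adjusted p = 2.97e-18), with 6 targets higher and 0 lower (45.5% of all genes called). The median over the 17 targets was 0.22 on day 10 of SNU398, against 0.03 over all genes, and -0.23 on day 3 of HepG2, against -0.00312 over all genes.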

How the data were processed

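Total RNA was measured on Illumina arrays, with cRNA made by a biotin labelling kit per the labels' protocols. The deposited table holds linear probe intensities, 47230 probes on 34 arrays; the authors' normalization of it is not given in the sources used. A further table with 72 columns (36 of signal) whose names match no sample was not used, so detection p-values could not be used as planned. Genes came from the platform annotation: 30113 probes have 1 symbol, 8 several and 17109 none, and 30074 were matched to RefSeq names.

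Intensities were corrected with limma 3.58.1 (R 4.3.3) normexp, offset 50, quantile normalized and put on the log2 scale. Background was set at 6.98, the mode of all values plus 1.65 times the spread below it. The 20955 one-symbol probes above it on both arrays of at least 1 group were fitted in limma as 17 group means (17 residual degrees of freedom), with 36 comparisons: treated against untreated, steps between treated days, untreated lines, and differences of effect between lines. P-values were Benjamini-Hochberg adjusted within each comparison over all of these probes. A fold against a group with no array above background is a lower bound, the mean of the bright group against the background level. The fit was tested on simulated data. Pathway genes were counted with 1 probe each, and at most 4 a list were named, those with the smallest adjusted p. The members and lists were chosen with earlier results of these data known. Alternatives were the deposited values on the log2 scale, other normalizations and filters, 1 probe a gene, each line fitted on its own, a replicate block, and leaving out each array. Promoters were read from RefSeq tables with Python 3.11.15.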

Additional observations from a re-analysis of the deposited data

Results flagged for a closer look

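The effect of treatment, treated minus untreated on the log2 scale, was compared between lines day by day, and the results below are those in which this difference of effect passed the limma test, each given on the day of its smallest adjusted p. Between 8.23% and 31.6% of all tested probes passed it, by comparison. For DKK1 probe 1773337 the effect in HepG2 minus that in SNU398 was -4.422 on day 24 (adjusted p = 1.31e-17) and the effect in SNU398 minus that in SNU475 was 4.816 (adjusted p = 2.61e-18). Probe 2174189 gave -2.654 and 2.345 on day 24 for the same pairs of lines, and -0.7537 for HepG2 minus SNU475 on day 10 (adjusted p = 0.0384), a call that was lost when any 1 of its 8 arrays was left out (-0.8132 to -0.6942; adjusted p = 0.0573 to 0.114). Median scaling also ended that call (-0.6622; limma adjusted p = 0.073).

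SFRP1 gave -1.882 for HepG2 minus SNU398 on day 10 and 2.071 for SNU398 minus SNU475 on day 17. WIF1 gave -0.8556 and 0.9943 for these pairs on day 10, the first of which was lost without untreated replicate 1 of HepG2 or of SNU398 (adjusted p = 0.0546 to 0.0872). For DKK4 the effect in HepG2 exceeded that in SNU398 by 1.459 on day 3 and that in SNU475 by 1.584 on day 17, with both other lines below background. SFRP4 probe 1810172 gave 0.7709 for HepG2 minus SNU398 on day 24 (adjusted p = 0.0486) and 0.9032 for HepG2 minus SNU475 on day 17 (adjusted p = 0.0239). The first was lost without any 1 of its 8 arrays but untreated SNU398 replicate 1 (adjusted p = 0.0514 to 0.217) and with the replicate block (adjusted p = 0.0517), and the second without untreated HepG2 replicate 2 or replicate 1 of HepG2 day 17, untreated SNU475 or SNU475 day 17 (0.0692 to 0.0939). Median scaling ended the first as well (0.7319; limma adjusted p = 0.0513).

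DKK3 probe 2398159 gave -0.6247 for HepG2 minus SNU398 on day 17, -0.8669 for HepG2 minus SNU475 on day 10 and -0.9712 for SNU398 minus SNU475 on day 24, and probe 1815673 gave -0.8812 for HepG2 minus SNU398 and -0.9452 for HepG2 minus SNU475 on day 10. No HepG2 array of these days or of untreated cells was above background on either DKK3 probe (on 1815673, 6.26 on day 10 and 6.70 untreated, and on 2398159, 6.18 on day 17 and 6.46 untreated), so the sizes that involve HepG2 include differences below background. The HepG2 minus SNU398 value of 2398159 was lost without HepG2 day 17 replicate 2 or untreated SNU398 replicate 1 (adjusted p = 0.0622 to 0.074), and that of 1815673 without HepG2 day 10 replicate 2 (adjusted p = 0.0616). The deposited values also ended the call of 2398159 (-0.3511; limma adjusted p = 0.0879). Differences that involve SNU398, or SNU475 from day 10, cross array sets.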

How the results depend on the processing

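Of 137 called values of members, 103 kept their call in every alternative run for them, 34 lost it in at least 1, and 0 reversed. Member probe calls under each alternative were as follows. The deposited values raised the lower calls in SNU475 against untreated cells to 14, against 8, while the median of all probes shifted by -0.242 to -0.199 from day 10. Keeping only probes above background in every group, which leaves 1 member probe, DKK1 1773337, gave 0 higher and 3 lower calls in HepG2, 4 higher in SNU398, 0 higher and 4 lower in SNU475, 2 and 3 in steps between days, 2 and 1 between untreated lines and 5 and 4 in differences of effect. With 1 probe a gene, lower calls were 3 in HepG2, 4 in SNU475, 5 in steps, 7 between untreated lines and 16 in differences of effect. Without both day 56 arrays, chosen after seeing the data, SNU475 had 4 higher calls.

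Leaving out each of 34 arrays in turn gave, as lowest to highest counts of higher and of lower calls, 7 to 7 and 6 to 7 in HepG2, 12 to 19 and 0 to 0 in SNU398, 6 to 9 and 8 to 8 in SNU475, 11 to 14 and 6 to 8 in steps, 8 to 9 and 11 to 14 between untreated lines, and 17 to 22 and 20 to 27 in differences of effect. Same-numbered arrays did not deviate together (1 of 10 pairs of groups over a correlation of 0.1 in HepG2, 0 of 10 in SNU398, 0 of 21 in SNU475), and with the replicate block the counts were 7 and 6, 18 and 0, 8 and 8, 14 and 8, 9 and 13, and 20 and 25 in the same order; 1 call was lost (SFRP4 probe 1810172, effect in HepG2 minus that in SNU398 on day 24). Levels near background limit SFRP2, SFRP4, SFRP5 and the dimmer DKK1 and DKK3 probes.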
